A study of Mus musculus with 12 samples.

Results

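The 9 transcription factors Cdx1, Cdx2, Hnf4a, Hnf4g, Gata4, Gata6, Klf4, Klf5 and Sox9, which set or maintain the identity of the intestinal epithelium, were described in the RNA-Seq data of the proximal colon of APC Min/+ and wild type mice. They were chosen by name, and their Ensembl identifiers were found among the 38924 genes listed for each mouse. The APC Min/+ group held 6 female C57BL/6 mice heterozygous for the Min allele of Apc, a germline truncating mutation carried by every cell of the animal, and the WT group held 6 female C57BL/6 mice of the same strain without it. All 12 mice were 6 weeks old, and total RNA came from the proximal colonic mucosa of each mouse, so each library mixes all cell types of that tissue. The question put to these genes was whether the factors that distinguish small intestine from colon, or that mark crypt and surface cells, differed between the genotypes.

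The epithelium of the gut keeps a regional identity along its length through transcription factors that act together on shared enhancers. CDX1 and CDX2 are homeobox factors related to Drosophila caudal that hold the intestinal state against the gastric one, and HNF4A and HNF4G are nuclear receptors that drive the enterocyte programme of absorption and lipid handling. GATA4 is restricted to the proximal small intestine while GATA6 is used along the whole gut, KLF5 is found in dividing crypt cells and KLF4 in differentiated surface and goblet cells, and SOX9 marks crypt base cells and responds to Wnt signalling, the pathway that Apc restrains.

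Promoter sequence is shown for the members for which the RefSeq promoter table of GRCm38.p6 held an entry that could be printed, because several of these factors are known to bind each other's regulatory regions. The windows run 5′ to 3′ on the strand of the gene from 250 to 51 bases before the RefSeq start. They lie at chr5:147307300-147307499 for Cdx2, chr2:163506607-163506806 for the upstream start of Hnf4a and chr4:55532526-55532725 for Klf4. Capitals mark matches on either strand to TTTAT, a core bound by CDX and posterior HOX proteins, GATAA for GATA factors, CAAAGTCCA for HNF4 and CCACCC for KLF factors.
Cdx2: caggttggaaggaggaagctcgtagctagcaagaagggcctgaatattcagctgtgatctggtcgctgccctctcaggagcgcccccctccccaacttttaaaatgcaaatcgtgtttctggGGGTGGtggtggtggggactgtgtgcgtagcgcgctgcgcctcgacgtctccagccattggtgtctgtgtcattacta
Hnf4a: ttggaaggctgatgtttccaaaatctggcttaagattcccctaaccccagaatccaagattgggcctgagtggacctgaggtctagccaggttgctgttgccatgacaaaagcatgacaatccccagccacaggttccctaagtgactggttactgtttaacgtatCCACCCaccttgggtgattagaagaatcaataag
Klf4: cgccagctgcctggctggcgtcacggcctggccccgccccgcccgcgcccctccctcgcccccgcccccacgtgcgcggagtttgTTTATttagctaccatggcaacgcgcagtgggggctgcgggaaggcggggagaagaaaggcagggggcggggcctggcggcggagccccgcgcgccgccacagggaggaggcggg
The Cdx2 window held 1 CCACCC match and no TTTAT, the Hnf4a window 1 CCACCC match, and the Klf4 window 1 TTTAT match. Among 32851 promoter windows of the same 200 bases, 22.4% held CCACCC, 31.6% TTTAT, 19.3% GATAA and 0.295% CAAAGTCCA, so the matches shown are of common letters. Hnf4a has 2 starts in the table, and the counts per gene do not separate transcripts from them.

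Reads counted on genes totalled 81730206 to 197914821 per APC Min/+ mouse and 50313805 to 117477400 per WT mouse. Levels are given in CPM (counts scaled to library size with TMM, edgeR's correction for composition) within a gene and in RPKM (CPM per kilobase of exon) between genes. Apc itself was counted at 164 to 216 CPM in APC Min/+ mice and 154 to 239 CPM in WT mice, and because the Min allele is a truncating mutation its level does not check the genotype. Epithelial markers were present in every mouse, with the 8 markers summing to 8431 to 15512 CPM, and smooth muscle markers were also present, with 6 markers summing to 4391 to 6959 CPM. Libraries stood apart in 2 ways. APC Min/+ mice M10_2 and M13_1, labelled proximal colonic mucosa like the other 10, had summed posterior Hox genes at 476 and 629 CPM against 17.3 to 30.1 CPM in the others. Whether these 2 samples were taken from the same stretch of colon as the others was not tested, and every genotype value below that includes them carries this limit. The second way concerned WT mouse M17_1 and, less so, APC Min/+ mouse M2_A. In M17_1 the difference between GC-rich and GC-poor genes (the top 20% and bottom 20% by transcript GC content, median log2 deviation from the mean of the mice) was -0.63, the lowest of the 12, and mitochondrial genes took 12.7% of the counts against 4.35% to 8.46% in the others. In M2_A the corresponding values were -0.28 and 8.46%, while M18_2a, at -0.29, was close to it in the first. Genotype differences of the tested factors are therefore given for all mice and without each of these pairs, both chosen with values of these data known.

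Of the 9 factors, Hnf4a was the most abundant per length and Gata4 was near the limit of detection, with the other 7 spread between them. Per length, Hnf4a averaged 145 ± 43.7 RPKM (SD, n = 6) in WT mice, Klf4 89.7 ± 40.3, Cdx2 77.6 ± 27.7, Cdx1 76.6 ± 30.0, Klf5 58.1 ± 21.1, Hnf4g 18.5 ± 3.95, Gata6 8.47 ± 2.20 and Sox9 6.33 ± 1.88 RPKM. Hnf4a was above Klf4 in 6 of 6 WT mice and in 5 of 6 APC Min/+ mice. Klf4, Cdx2 and Cdx1 could not be ordered in WT mice, since Klf4 was above Cdx2 in 4 of 6 mice and Cdx2 above Cdx1 in 3 of 6. Cdx1 was above Klf5 in 6 of 6 WT mice but in 4 of 6 APC Min/+ mice, and Klf5 above Hnf4g in 5 of 6 WT and 6 of 6 APC Min/+ mice. Hnf4g was above Gata6 in 6 of 6 WT and 5 of 6 APC Min/+ mice, and Gata6 above Sox9 in 5 of 6 WT and 6 of 6 APC Min/+ mice. In APC Min/+ mice the Cdx2 mean of 62.2 ± 40.8 RPKM (SD, n = 6) lay below the 88.5 ± 24.0 of Cdx1 and the 80.9 ± 32.1 of Klf5. This rested on M10_2 and M13_1. In the other 4 APC Min/+ mice Cdx2 averaged 85.6 RPKM, Cdx1 82.6 and Klf5 66.7, with both CDX means above Klf5 as in WT mice. Cdx2 and Cdx1 could not be ordered in these 4 either, since the ratio of Cdx1 to Cdx2 ran from 0.821 to 1.04. Over all 6 APC Min/+ mice the difference between Cdx2 and Cdx1 had an exact two-sided permutation p = 0.406.

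**Figure D1:**
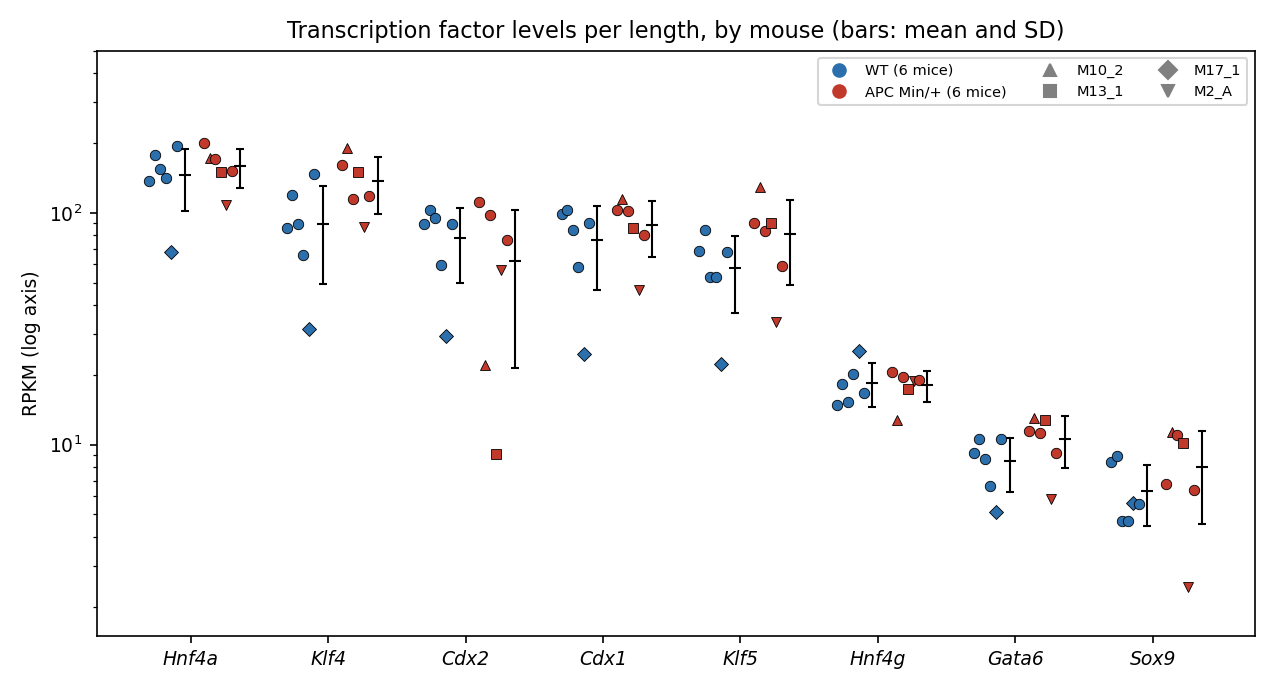
Levels per length (RPKM, log axis) of the 8 factors above the filter on low counts, with each point 1 mouse (WT blue, APC Min/+ red), bars giving the mean and SD of 6 mice, and symbols picking out M10_2, M13_1, M17_1 and M2_A. The 2 lowest Cdx2 points are M13_1 and M10_2, while the WT mouse M17_1 is the lowest of its group for Hnf4a, Klf4, Cdx2, Cdx1, Klf5 and Gata6 and the highest for Hnf4g.

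No factor was called different between APC Min/+ and WT mice, and the 95% interval of each tested difference included 0. Of the 8 factors with enough counts to test, edgeR's quasi-likelihood test called 0 (FDR under 0.05 with a change of 2-fold or more), and it called 0 (0%) of all 20311 genes tested. At an unadjusted p under 0.05 there were again 0 of 8 factors, against 1071 genes (5.27%) of all those tested, 703 of them (3.46%) higher and 368 (1.81%) lower in APC Min/+ mice. DESeq2 called 27 genes and edgeR's likelihood ratio test 15, with no factor among them in either. The median log2 fold change of the 8 factors was 0.27 and that of all genes tested -0.0077, and 6 of the 8 had a higher fitted value in APC Min/+ mice. In whole mucosa, fewer cells of a type and less RNA per cell cannot be told apart in any of these values. The mice came in several shipments, and the labels do not say which mouse belongs to which, so the part of shipment was not tested.

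**Figure D2:**
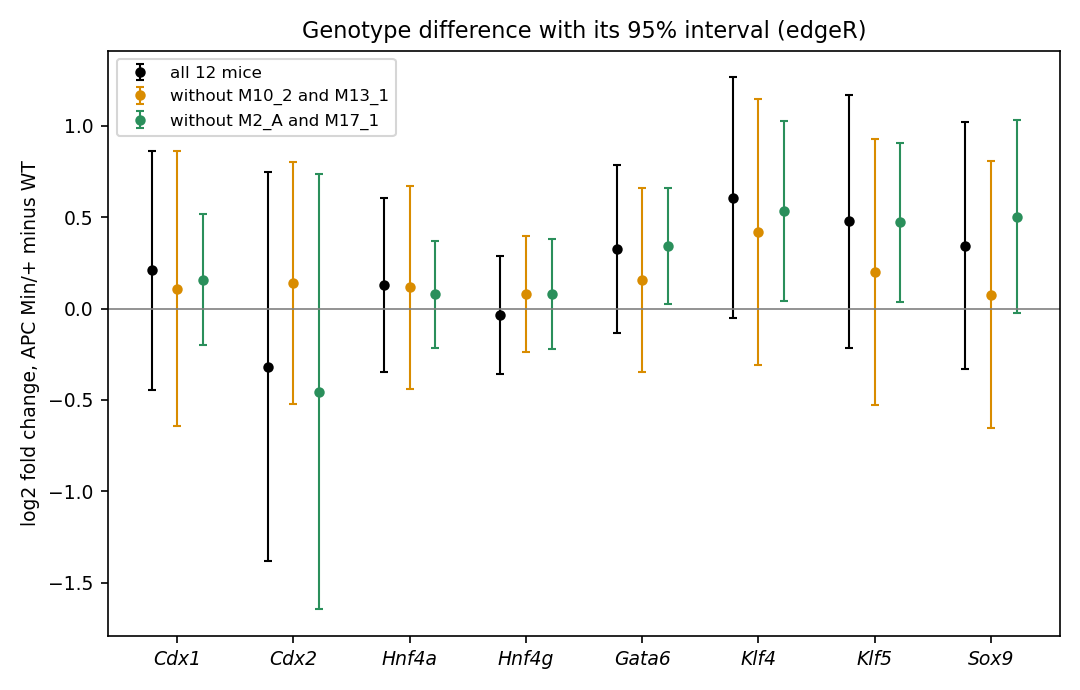
Fitted log2 fold change (APC Min/+ minus WT) of each factor with its 95% interval from edgeR, for all 12 mice (black), without M10_2 and M13_1 (orange) and without M2_A and M17_1 (green). All 8 intervals include 0 with all 12 mice, that of Cdx2 is the widest, and the Cdx2 value changes sign once M10_2 and M13_1 are left out.

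Among the homeobox factors, Cdx2 varied more widely between APC Min/+ mice than Cdx1 did. In the GENCODE M21 annotation of GRCm38, used for all positions below, Cdx2 (ENSMUSG00000029646.3) spans 147300805 to 147307270 of chromosome 5, reverse strand. In APC Min/+ mice Cdx2 was 251 CPM in M8_2, 222 in M18_2b, 173 in M20_1, 128 in M2_A, 49.9 in M10_2 and 20.6 in M13_1. In WT mice it was lowest in M17_1 at 66.6 CPM, had a median of 202 and was highest in M19_1 at 232 CPM. M10_2 and M13_1 were thus the only mice below M17_1, and the other 4 APC Min/+ mice lay within or just above the WT range. The step from M17_1 down to M10_2 was smaller than that from M10_2 down to M13_1, so the Cdx2 level alone did not set these 2 mice apart. The log2 fold change of Cdx2 was -0.32 (SE 0.49, 95% interval -1.38 to 0.75, edgeR FDR = 0.919). Without M10_2 and M13_1 it was 0.14 (95% interval -0.52 to 0.80, edgeR FDR = 0.9999), and -0.45 without M2_A and M17_1.

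Cdx1 (ENSMUSG00000024619.8) spans 61018862 to 61036199 of chromosome 18, reverse strand. It ran from 81.3 CPM in M2_A over a median of 164 to 200.4 CPM in M10_2 in APC Min/+ mice, and from 43.1 CPM in M17_1 over a median of 153 to 180 CPM in M19_1 in WT mice. The mouse with the second lowest Cdx2 therefore had the highest Cdx1 of all 12, and M13_1 stood at 151 CPM, inside the WT range. The log2 fold change of Cdx1 was 0.21 (SE 0.30, 95% interval -0.44 to 0.86, edgeR FDR = 0.917). It was 0.11 without M10_2 and M13_1 and 0.16 without M2_A and M17_1. Leaving out WT mouse M17_1 alone brought it to 0.023, and leaving out M2_A alone to 0.34.

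The ratio of Cdx1 to Cdx2 in RPKM separated M10_2 and M13_1 from the rest more clearly than either gene. It was 5.19 in M10_2 and 9.46 in M13_1, and between 0.821 and 1.11 in each of the other 10 mice, although Cdx1 and Cdx2 themselves each varied more than 3-fold among those 10. On the log2 scale, with 0.01 RPKM added, the ratio averaged 0.89 ± 1.52 (SD, n = 6) in APC Min/+ and -0.051 ± 0.15 (SD, n = 6) among WT mice. This difference of 0.94 did not pass an exact two-sided permutation test over mice (p = 0.271, 0.541 adjusted over the 4 ratios tested). Without M10_2 and M13_1 the difference was -0.022 (exact permutation p = 0.819), and without M2_A and M17_1 it was 1.13 (exact permutation p = 0.214).

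**Figure D3:**
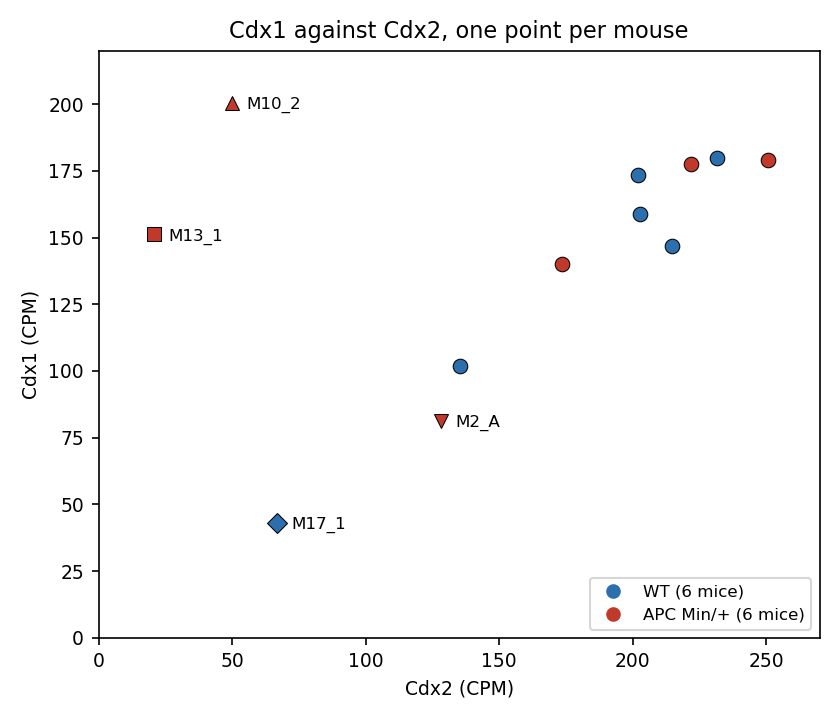
Cdx1 against Cdx2 in CPM, 1 point per mouse (WT blue, APC Min/+ red). From M17_1 to M8_2, 10 mice lie along 1 line with a ratio between 0.821 and 1.11 in RPKM, and M10_2 and M13_1 lie off it at low Cdx2.

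Genes with known regional use were read beside the CDX factors in M10_2 and M13_1. All 6 posterior Hox genes of the list were tested. Hoxb13 was 378 CPM in M10_2 and 275 in M13_1 and at most 0.744 in the other 10 mice, and Hoxa13 was 76.5 and 61.8 CPM against at most 2.75. Hoxd13 was far higher in M13_1 than in M10_2, at 209 and 12.4 CPM, against at most 0.533 in the others. HOX13 proteins pattern the hindgut end of the embryo. The posterior Hox list had 4 of 6 genes higher at an unadjusted p under 0.05 and 0 called in edgeR's quasi-likelihood test, while DESeq2 called 1, Hoxb13, and gave no p for Hoxd13, and the likelihood ratio test 1, Hoxd13. Its median log2 fold change was 4.52, and 0.059 without M10_2 and M13_1. Hoxd10, a more anterior member of its cluster named after its values were seen, had a log2 fold change of 0.047, with 3.30 CPM in M10_2 and 29.4 in M13_1 against 9.93 to 16.4 CPM in the others.

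Small intestinal enterocyte genes were measured at a summed 368 CPM in M10_2 and 380 CPM in M13_1, against 1526 to 2436 CPM in the other 10 mice. Of the 16 genes on the list, 1 was lower at an unadjusted p under 0.05, 0 were higher, 0 were called in edgeR and the median log2 fold change was -0.37, or -0.13 without M10_2 and M13_1. The 3 with the lowest p were Fabp1, a fatty acid binding protein, with a log2 fold change of -1.27 (SE 0.56, edgeR FDR = 0.908), Apob with -0.75 (SE 0.42) and Sis, sucrase-isomaltase, with -1.45 (SE 0.88). Sis was 0.995 CPM in M10_2 and 3.03 in M13_1 and 19.9 to 295 CPM in the others. Apob, the structural protein of chylomicrons, was 67.6 and 63.1 CPM against 260 to 618. The ileal bile acid transporter Slc10a2 and the fatty acid binding protein Fabp2, named after their values were seen, were 2.86 and 10.3 CPM against 105 to 382 and 32.8 and 41.8 CPM against 610 to 1437. The glucose transporter Slc5a1, likewise named after its values were seen, went the other way, at 231 and 227 CPM against 135 to 210. Fabp6, Mttp, Anpep and Apoc3, also named after their values were seen, lay within the range of the others in both mice. Fabp2 was the largest single part of the sum in each of the other mice.

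Colonocyte genes were split. The list of 9 summed to 5363 CPM in M10_2 and 7423 in M13_1, against 20996 to 43667 CPM in the other mice. In those other mice the sum was mostly Car1, a carbonic anhydrase, at 14620 to 32558 CPM. Car1 and Cyp2c55, another gene of the list, were named after their values were seen. Cyp2c55 was 4755 to 9548 CPM in the other mice. In M10_2 and M13_1, Car1 was 966 and 2540 CPM and Cyp2c55 323 and 715 CPM. In contrast, the chloride channel gene Best2 was 98.9 and 67.4 CPM in these mice against 4.63 to 12.5, the water channel gene Aqp4 480 and 126 CPM against 30.7 to 66.2, and the monocarboxylate transporter gene Slc5a8 531 and 519 CPM against 136 to 203. These 3 had the lowest p of the list, with log2 fold changes of 1.98 (SE 0.69), 1.55 (SE 0.62) and 0.92 (SE 0.32) and FDR = 0.908 in edgeR. Without M10_2 and M13_1 they were -0.075, -0.055 and 0.21. Over the list 3 of 9 genes were higher at an unadjusted p under 0.05 and 0 lower, and 0 were called.

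**Figure D4:**
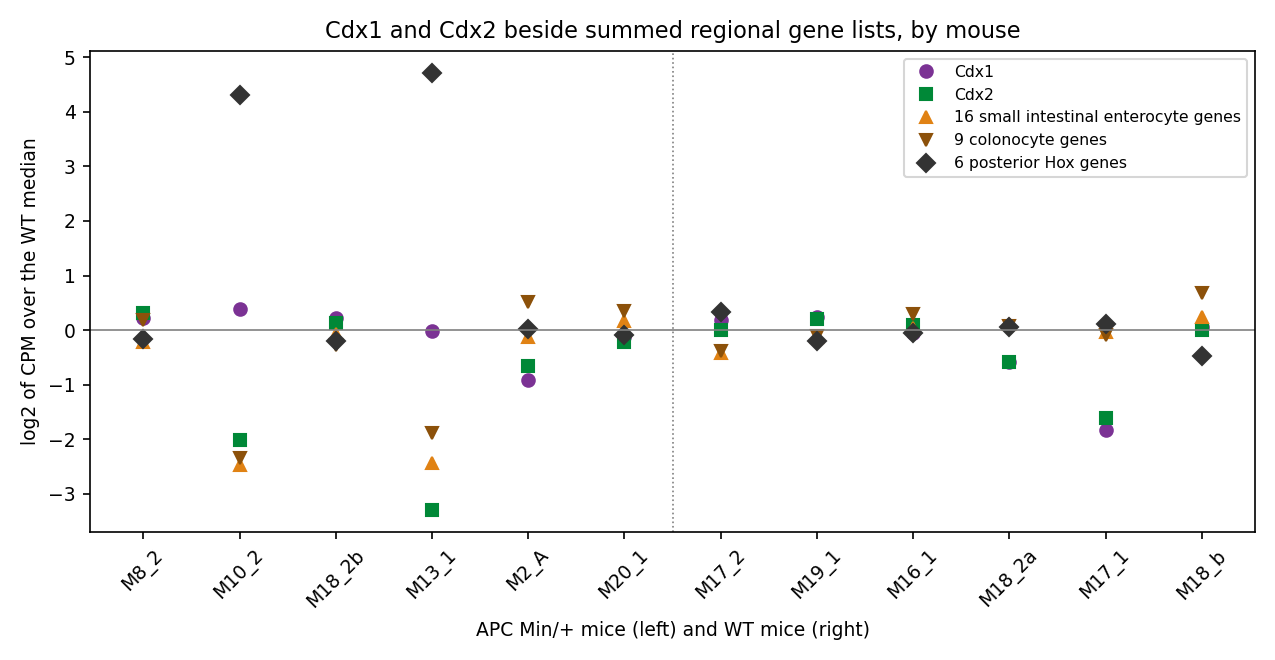
Log2 of the CPM of Cdx1, Cdx2 and the summed lists of small intestinal, colonocyte and posterior Hox genes over the WT median, by mouse (APC Min/+ left, WT right of the dotted line). M10_2 and M13_1 are high for posterior Hox genes and low for both other lists and for Cdx2, with Cdx1 near the WT median, whereas in M17_1 Cdx1 and Cdx2 are low together with all 3 lists near the WT median.

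The nuclear receptor Hnf4a (ENSMUSG00000017950.10, chromosome 2, 163506808 to 163572910, forward strand) did not follow Cdx2 in M10_2 and M13_1. It was 830 and 728 CPM in them, within the range of the other 4 APC Min/+ mice, which ran from 520 in M2_A to 964 CPM in M8_2. In WT mice Hnf4a was lowest in M17_1 at 327 CPM, with a median of 713 and a highest value of 936 CPM in M18_b. The groups overlapped over nearly their whole range, with a log2 fold change of 0.13 (SE 0.22, 95% interval -0.35 to 0.60, edgeR FDR = 0.924). It was 0.12 without M10_2 and M13_1, 0.077 without M2_A and M17_1 and -0.018 without M17_1 alone.

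Its paralog Hnf4g (ENSMUSG00000017688.8, chromosome 3, 3508030 to 3658052, forward strand), which acts beside it in enterocytes, had an RPKM well under that of Hnf4a in every mouse. In APC Min/+ mice it ran from 55.6 CPM in M10_2 over a median of 82.3 to 89.9 CPM in M8_2, and in WT mice from 64.7 CPM in M17_2 over a median of 76.0 to 111 CPM in M17_1. Hnf4g was thus highest in the mouse in which Hnf4a, Cdx1, Cdx2, Gata6, Klf4 and Klf5 were lowest of the WT group. Its log2 fold change was -0.033 (SE 0.15, 95% interval -0.36 to 0.29, edgeR FDR = 0.973), and it was 0.080 both without M10_2 and M13_1 and without M2_A and M17_1.

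The GC content of the longest transcript was 41.5% for Hnf4g, below the 43.9% that bounds the lowest 20% of genes, and between 47.9% and 62.1% for the other 8 factors, with 49.7% the median of genes at 1 CPM or more. Hnf4g thus differed from the others in the measure in which M17_1 stood apart, and the part of GC content in the level of single mice was not tested. The log2 ratio of Hnf4g to Hnf4a was -3.13 ± 0.40 in APC Min/+ and -2.93 ± 0.78 in WT mice (SD, n = 6 each). It differed by -0.20 between genotypes (exact permutation p = 0.682, 0.682 adjusted over 4 ratios), by -0.048 without M10_2 and M13_1 and by -0.020 without M2_A and M17_1. In single mice the ratio of RPKM values ran from 0.0743 in M10_2 to 0.376 in M17_1.

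Of the GATA factors, Gata4 was close to absent and Gata6 was measured in every mouse. Gata4 (ENSMUSG00000021944.9) spans 63198922 to 63271692 of chromosome 14, reverse strand. It gave 4, 28, 2, 5, 0 and 6 counts in APC Min/+ mice M8_2, M10_2, M18_2b, M13_1, M2_A and M20_1, and 2, 0, 2, 0, 4 and 2 counts in WT mice M17_2, M19_1, M16_1, M18_2a, M17_1 and M18_b. Only M10_2 reached 10 counts, so Gata4 fell below the filter of 10 counts in 3 mice. A count of 0 allows up to 3 counts, or 0.0152 to 0.0560 CPM depending on the mouse, and 0 in M19_1, M18_2a and M2_A therefore limits Gata4 to at most 0.0288, 0.0267 and 0.0315 CPM for counting error only. M10_2 stood at 0.141 CPM. This was also the mouse with the highest Pdx1, the homeobox factor of pancreas and duodenum, at 1.28 CPM against 0.0374 to 0.205 in the 10 others and 0.177 in M13_1. No fold change is given for Gata4, since WT mice lay at or near that limit.

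Gata6 (ENSMUSG00000005836.8) spans 11052064 to 11085635 of chromosome 18, forward strand. It ran from 18.6 CPM in M2_A over a median of 36.2 to 41.6 CPM in M10_2 in APC Min/+ mice, and from 16.3 CPM in M17_1 over a median of 28.6 to 33.9 CPM in M18_b in WT mice. Of the APC Min/+ mice, 4 lay above the highest WT mouse, and M20_1 and M2_A did not. Its genotype difference was 0.32 on the log2 scale (SE 0.21, 95% interval -0.14 to 0.79, edgeR FDR = 0.908). Without M2_A and M17_1, mice chosen after seeing the values, it was 0.34 and passed an unadjusted p of 0.05 but not the adjustment (edgeR FDR = 0.713). It was 0.16 without M10_2 and M13_1. Over the 21 alternative fits the FDR lay between 0.548 and 0.9999. Gata4 was below the added 0.01 RPKM in 9 of 12 mice, so the log2 ratio of Gata4 to Gata6, though counted among the 4 ratios tested, rests mostly on that addition and nothing is read from it.

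Klf4 (ENSMUSG00000003032.8, chromosome 4, 55527143 to 55532466, reverse strand) had the largest positive difference among the 8 tested factors. In APC Min/+ mice it ran from 264 CPM in M2_A over a median of 409 to 581 CPM in M10_2, and in WT mice from 95.7 CPM in M17_1 over a median of 267 to 448 CPM in M18_b. The groups overlapped, with M10_2, M8_2 and M13_1 above every WT mouse and M17_1, M18_2a and M17_2 below every APC Min/+ mouse. The log2 fold change was 0.61 (SE 0.31, 95% interval -0.051 to 1.27, edgeR FDR = 0.908).

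The Klf4 value was positive in all 21 alternative fits, from 0.42 to 0.81. Its unadjusted p was under 0.05 in 6 of them and its FDR lay between 0.548 and 0.9999. With the summed epithelial markers as library size it was 0.65 (edgeR FDR = 0.958), with transcript GC content removed 0.59 (edgeR FDR = 0.826), and without M10_2 and M13_1 0.42 (edgeR FDR = 0.9999). Without M2_A and M17_1 it was 0.53 and passed an unadjusted p of 0.05 but not the adjustment (edgeR FDR = 0.713). Smooth muscle and fibroblast markers were each higher in APC Min/+ mice in 5 of 6 genes. At an unadjusted p under 0.05, 3 of 6 and 1 of 6 were higher, and 0 were called. Endothelial markers were higher in 4 of 4 genes and enteric neuron and glia markers in 6 of 7, with 0 past that p. The summed smooth muscle and fibroblast levels ran from 4391 to 6959 CPM and from 1881 to 2834 CPM in APC Min/+ mice. In WT mice they ran from 4635 to 5841 CPM and from 1101 to 2189 CPM. Klf4 is also expressed in such cells, and their part in the result was not tested.

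Klf5 (ENSMUSG00000005148.7) spans 99298691 to 99315036 of chromosome 14, forward strand. It ran from 58.0 CPM in M2_A over a median of 149 to 221 CPM in M10_2 in APC Min/+ mice, and from 38.2 CPM in M17_1 over a median of 104 to 145 CPM in M19_1 in WT mice. APC Min/+ mice differed from WT by a log2 fold change of 0.48 (SE 0.32, 95% interval -0.21 to 1.17, edgeR FDR = 0.908), and 0.20 without M10_2 and M13_1. Without M2_A and M17_1 it was 0.47, again past an unadjusted p of 0.05 but not the adjustment (edgeR FDR = 0.713). For the crypt factor and the surface factor alike, M10_2 was the highest and M2_A the lowest of the APC Min/+ mice and M17_1 the lowest of the WT mice. The log2 ratio of Klf4 to Klf5 was 0.82 ± 0.32 in APC Min/+ and 0.59 ± 0.31 in WT mice (SD, n = 6 each), a difference of 0.24 that did not pass the test (exact permutation p = 0.219, 0.541 adjusted over 4 ratios). It was 0.33 without M10_2 and M13_1 and 0.11 without M2_A and M17_1.

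Sox9 (ENSMUSG00000000567.5, chromosome 11, 112782224 to 112787760, forward strand) was the least abundant of the tested factors and spread most widely in APC Min/+ mice after Cdx2. It was 10.1 CPM in M2_A, with a median of 35.1 and a highest value of 46.9 CPM in M10_2, and in WT mice it ran from 19.4 CPM in M18_2a over a median of 23.1 to 37.1 CPM in M19_1. M2_A was the lowest of all 12 mice, whereas M17_1, which shared its low Cdx1 and Klf5, had 23.1 CPM of Sox9 and stood in the middle of the WT group. Fitted to all mice, the log2 fold change was 0.34 (SE 0.31, 95% interval -0.33 to 1.02, edgeR FDR = 0.910), 0.50 without M2_A and M17_1 and 0.075 without M10_2 and M13_1.

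The factors differed in how much they varied between mice of 1 genotype. Among WT mice the SD of log2 CPM was 0.78 for Cdx1 and for Klf4, 0.68 for Cdx2, 0.67 for Klf5, 0.54 for Hnf4a, 0.41 for Gata6, 0.40 for Sox9 and 0.29 for Hnf4g, against a median of 0.24 over 14898 genes with a mean of at least 1 CPM. Without M17_1 they lay between 0.18 for Hnf4g and 0.45 for Klf4, against a median of 0.19 over all those genes. Klf4 then stood at the 95.1 percentile of genes and Sox9 at the 94.96, while Hnf4a stood at the 60.5 and Hnf4g at the 47.7.

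Across the 12 mice Cdx1, Hnf4a, Gata6, Klf4 and Klf5 varied together, while Cdx2, Hnf4g and Sox9 passed the test with few of them or none. Correlations of log2 CPM were computed for 36 pairs, of which 13 passed an adjusted p of 0.05 for Pearson's r. All 10 pairs among those 5 factors passed, with r from 0.84 between Hnf4a and Gata6 to 0.95 between Gata6 and Klf5. Gata6 and Klf5 also had Spearman's rho = 0.95 (permutation p = 1e-05 for r, the smallest that 100000 resamples can give, and 5e-05 for rho, adjusted over 36 pairs 0.00018 and 0.0018). The other passing pairs were Sox9 with Gata6 (r = 0.77) and with Klf5 (r = 0.73) and Cdx1 with Hnf4g, which was negative (r = -0.68). For rho as well, 11 of the 13 passed, and Cdx1 with Hnf4g and Hnf4a with Klf5 did not. Cdx1 with Hnf4g had rho = -0.43 (permutation p = 0.169, adjusted 0.315), and r = -0.43 without M17_1 and M2_A.

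Cdx2 had no passing pair over the 12 mice. With Cdx1 it had Pearson's r = 0.24 and Spearman's rho = 0.43 (permutation p = 0.433 and 0.169, adjusted over 36 pairs 0.520 and 0.315). Its r was 0.34 with Hnf4a, -0.074 with Gata6, -0.0049 with Klf4, -0.032 with Klf5 and -0.23 with Sox9. Hnf4g had a negative r with Cdx1, Hnf4a, Gata6, Klf4, Klf5 and Sox9, and r = 0.081 with Cdx2.

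Over the 10 mice other than M10_2 and M13_1, r between Cdx1 and Cdx2 was 0.98 and rho 0.94. No p is given for pairs with Cdx2 over these mice, since the mice left out were known to be those that part Cdx2 from Cdx1. In the same mice Cdx2 had r = 0.94 with Hnf4a and with Klf5, 0.93 with Gata6, 0.90 with Klf4 and 0.46 with Sox9. Of all genes compared, 4.99% correlated with Cdx2 at least as highly as Hnf4a did, and 9.61% at least as highly as Klf4. Over 8 mice, also without M2_A and M17_1, r with Cdx2 was 0.66 for Hnf4a, 0.75 for Klf5 and 0.88 for Gata6. It was 0.70 for Klf4 and 0.52 for Sox9. Over the 10 mice Sox9 had its highest r with Gata6, at 0.68 (adjusted permutation p = 0.061), and r = 0.40 with Hnf4a and 0.27 with Klf4.

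Part of the joint variation rested on M17_1 and M2_A, the mice farthest from the median for Cdx1, Hnf4a and Gata6. Without these over the 10 remaining mice, Cdx1 and Hnf4a changed from r = 0.93 to 0.53, Hnf4a and Klf5 from 0.87 to 0.47, and Hnf4a and Hnf4g from -0.51 to 0.15, while Gata6 and Klf5 had r = 0.87. High values were common among other genes too. Over 12 mice 4.89% of the 14898 genes correlated with Cdx1 at least as highly as Hnf4a did, 4.31% at least as highly as Klf5 and 38.6% at least as highly as Cdx2. All points share their libraries, depth and base composition, so r describes joint variation across these mice only.

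**Figure D5:**
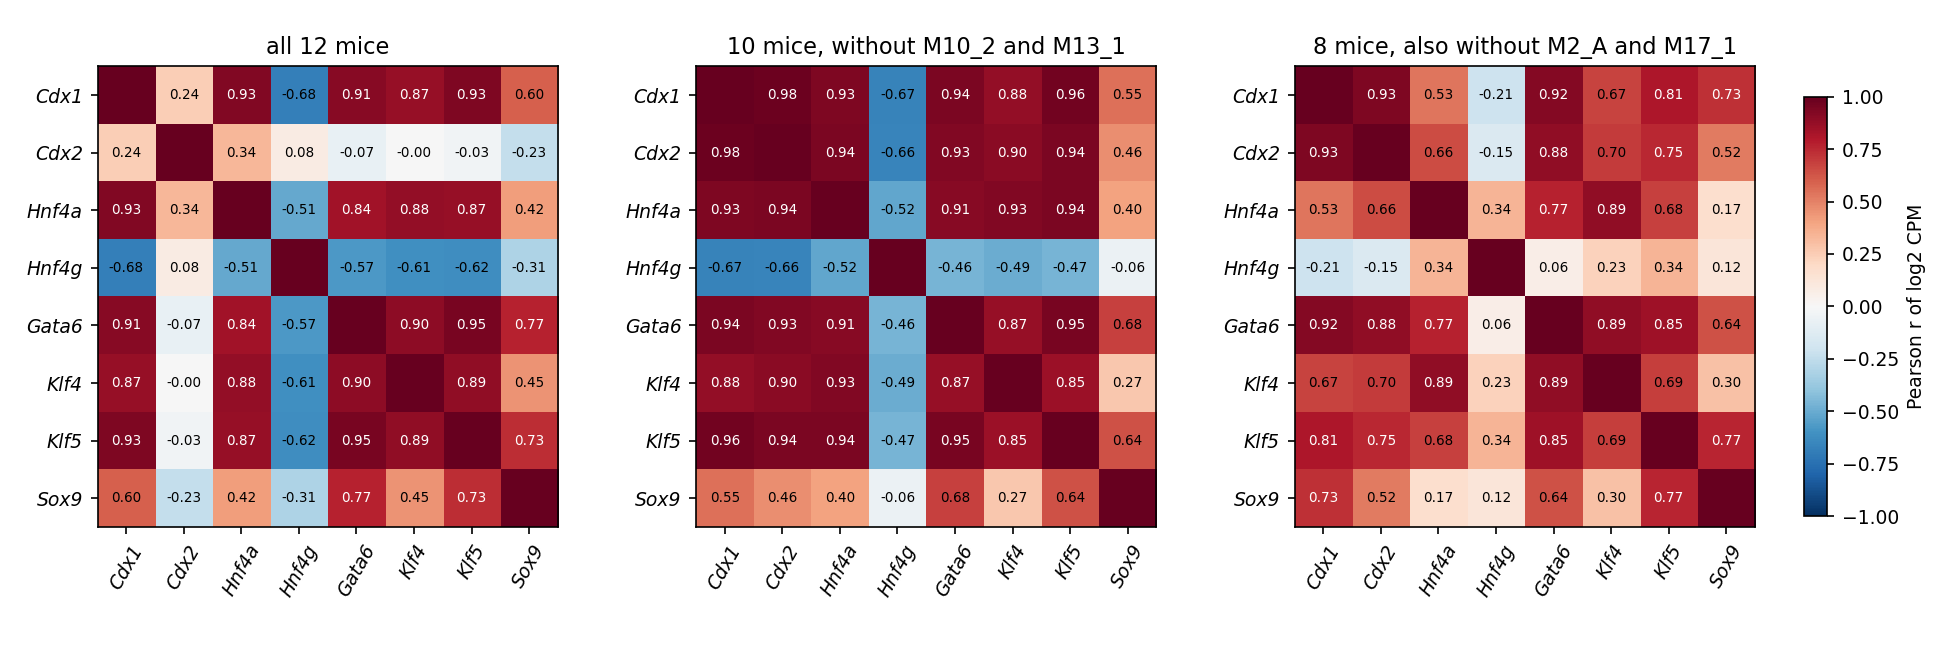
Pearson's r of log2 CPM between the 8 tested factors over all 12 mice (left), over 10 mice without M10_2 and M13_1 (middle) and over 8 mice also without M2_A and M17_1 (right), red for positive and blue for negative values. The Cdx1 and Cdx2 pair is at 0.24, 0.98 and 0.93, and the blue Hnf4g row and column over 10 mice turn pale over 8.

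Among 22 other transcription factors of the gut, 20 could be tested, 0 were called in edgeR, 3 were higher at an unadjusted p under 0.05 and 0 lower, with a median log2 fold change of 0.17. The 3 were Foxa2, a forkhead factor of goblet and endocrine cells, with 1.33 (SE 0.46), Pdx1 with 1.75 (SE 0.68) and Tcf7l2, the main Wnt pathway factor of the gut, with 0.45 (SE 0.19), all with FDR = 0.908. Foxa2 was 38.3 and 26.9 CPM in M10_2 and M13_1 and 3.15 to 11.7 CPM in the others, and Tcf7l2 was 102 and 106 CPM against 45.6 to 78.7. Without these 2 mice the log2 fold changes were 0.37, 0.56 and 0.17 and 0 factors had a p under 0.05. Isx, an intestine-specific homeobox factor known as a CDX2 target and named after its values were seen, was 8.24 and 7.59 CPM in M10_2 and M13_1 and 197 to 270 CPM in the others. The highest Isx, 270 CPM, was in WT mouse M17_1, whose Cdx2 of 66.6 CPM was the lowest of the WT group. The part of Cdx2 in the Isx level was not tested.

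Markers of other cells were read for M10_2, M13_1, M2_A and M17_1. Of the 8 epithelial markers none passed an unadjusted p of 0.05 between genotypes, and their sum of 10741 CPM in M10_2 and 9386 in M13_1 lay within the 8431 to 15512 CPM of the others. Single markers did not all do so. Of the 3 with the lowest p, Cdh1 was 1491 and 1199 CPM in M10_2 and M13_1 against 297 to 871 in the others. Cdh17 was 729 and 731 CPM against 912 to 1595, and Krt19 lay within the range of the others. Leukocyte markers summed to 806 CPM in M2_A and 833 in M17_1, against 104 to 648 in the other mice. Most of both sums was the antibody gene Jchain, at 748 CPM in M2_A and 772 in M17_1, so they do not show a rise of leukocytes in general. Adipocyte markers summed to 3.46 and 8.22 CPM in M10_2 and M13_1 and to 31.3 to 227 in the others. Endothelial markers had 0 of 4 and enteric neuron and glia markers 0 of 7 genes past an unadjusted p of 0.05. Pancreatic acinar markers reached at most 15.3 CPM in sum and Paneth cell markers at most 40.0, both in M18_2b. DESeq2 and the likelihood ratio test called 0 genes of these marker lists, of the small intestinal and colonocyte lists and of the other gut transcription factors. The part of these cells in the levels of the factors was not tested.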

How the data were processed

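RNA of the proximal colonic mucosa of 12 mice was sequenced in paired ends. Per the labels and the methods of the study, the authors aligned the reads to GRCm38 (GRCm38.p2) with STAR 2.3.0, obtained counts per gene from featureCounts and deposited the raw counts of each mouse in its own table, with gene lengths in bp. The annotation release and the strand and multi-mapping settings are not given in the sources used here. Symbols were matched for 37607 of 38924 identifiers through GENCODE M21. The members and gene lists were chosen with earlier results of these data known.

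Genes reaching 10 counts in 3 or more mice were tested with edgeR 4.0.16 (R 4.3.3; quasi-likelihood test, TMM factors, Benjamini-Hochberg over all 20311 genes, called at FDR under 0.05 and at least 2-fold). The script was tested on simulated data. The standard error is the fold change over the square root of F. CPM used TMM-scaled totals and RPKM divided them by the exonic length. Ratios used log2(RPKM + 0.01) and exact two-sided permutation tests, and correlations log2 CPM with 100000 resamples. Alternatives were other scalings, DESeq2 1.42.0, edgeR's likelihood ratio test, no filter and left-out mice, and, added after seeing the data, leaving out M2_A and M17_1 and removing transcript GC content through offsets. Named genes were the members, the 3 genes of each list with the lowest p, and the 3 genes most correlated with each member. Car1, Cyp2c55, Slc5a1, Hoxd10, Isx, Slc10a2, Fabp2, Fabp6, Mttp, Anpep and Apoc3 fall outside this rule and were named after their values were seen. The labels give no batch, and p-values measure the spread between these mice. Intervals of fold changes were built on the standard error above, so they include the spread between mice. Limits from counts cover counting error only.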

Additional observations from a re-analysis of the deposited data

Results flagged for a closer look

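Each of 8 tested factors and 3 log2 ratios was checked in both genotypes, 22 groups of 6 mice in all, for a mouse whose gap to its nearest neighbour, over the range of the group, exceeded Dixon's 95% critical value. Chance alone marks about 1 in 20 groups. The check marked 4, of which 3 were M17_1. Hnf4a in M17_1 lay at 8.36 log2 CPM with the nearest WT mouse at 9.36, and Klf5 in M17_1 at 5.28 with the nearest at 6.51. The log2 ratio of Hnf4g to Hnf4a was highest in M17_1 at -1.41, with the nearest WT mouse at -2.80. Among APC Min/+ mice, Hnf4g in M10_2 lay at 5.81 log2 CPM with the nearest mouse at 6.25. Cdx2 in APC Min/+ mice was not marked.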

How the results depend on the processing

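No member was called in any of the 21 alternative fits. The number of genes called was 0 in all of them except DESeq2, with 27, and edgeR's likelihood ratio test, with 15; leaving out 1 mouse at a time gave 0 throughout. The fitted value of Cdx2 changed sign without M10_2 and M13_1 (0.14), and that of Hnf4a without WT mouse M17_1 (-0.018). Hnf4g changed sign with library totals alone (0.012), without APC Min/+ mouse M10_2 (0.049), without WT mouse M17_1 (0.083), without M10_2 and M13_1 (0.080), and, in 2 alternatives chosen after seeing the data, without M2_A and M17_1 (0.080) and with transcript GC content removed (0.021). With 1 mouse left out at a time, Cdx1 lay between 0.023 (without M17_1) and 0.34 (without M2_A), Cdx2 between -0.56 (without M8_2) and -0.091 (without M13_1), Hnf4a between -0.018 and 0.24, Hnf4g between -0.089 and 0.083, Gata6 between 0.21 and 0.46, Klf4 between 0.43 and 0.81, Klf5 between 0.30 and 0.64 and Sox9 between 0.22 and 0.54. The highest values of Gata6, Klf5 and Sox9 were those without M2_A. The other 5 tested factors kept their sign in all 21. Leaving out 1 mouse moved the genotype difference in the log2 ratio of Cdx1 to Cdx2 between 0.47 and 1.17, of Hnf4g to Hnf4a between -0.32 and 0.10 (the latter without M17_1), of Gata4 to Gata6 between -0.00068 (without M19_1) and 0.40, and of Klf4 to Klf5 between 0.13 and 0.35. Without M10_2 and M13_1 the Cdx1 to Cdx2 difference was -0.022 and that of Gata4 to Gata6 -0.0013, and with a pseudocount of 1 the latter was -0.28. The Gata4 to Gata6 values rest mostly on the added RPKM. The number of pairs passing an adjusted p of 0.05 for Pearson's r was 13 with 12 mice and 15 without M10_2 and M13_1. It was 7 without M2_A and M17_1 as well, a choice also made after seeing the data. Pairs with Cdx2 made up 5 of the 15 and 0 of the 13. M10_2 and M13_1 were known to part Cdx2 from Cdx1. The counts without them therefore cannot test the Cdx2 pairs, and nothing is read from the change in count. The cause of the changes between settings was not tested. No paired analysis was possible because the labels carry no replicate numbers. The mice of each genotype were numbered only to name them, and nothing in the labels ties mice with the same number. Depth limits Gata4, at 0 to 28 counts per mouse.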

Other observations

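The genes whose log2 CPM followed each factor most closely over the 12 mice are given as a description, among 14898 genes with a mean of at least 1 CPM. For Cdx2 they were Pla2g6, a phospholipase (r = 0.99), Gfod2 (r = 0.98) and Pcsk5, a proprotein convertase (r = 0.98). Pcsk5 stood at 25.6, 12.6 and 36.4 CPM in M10_2, M13_1 and M17_1. Over the 10 other mice the 3 values of r with Cdx2 were 0.97, 0.96 and 0.92. For Cdx1 they were Gnl1, Furin and Rps6ka1, each with r = 0.99, of which Furin is another proprotein convertase. For Hnf4a they were Zdhhc5 (r = 0.99), the mitochondrial fusion gene Mfn2 (r = 0.98) and Pxk (r = 0.98).

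For Gata6 the closest genes were Sipa1l3 (r = 0.99), Phactr4 (r = 0.98) and Csnk2a2 (r = 0.98). For Klf4 they were Tnip1, an inhibitor of NF-kappaB signalling, the small GTPase gene Rhob and the endothelial lipase gene Lipg, each with r = 0.98. For Klf5 they were Klhl18, Rcor1 and the non-muscle myosin gene Myh9, each with r = 0.99, and for Sox9 Parp16, Rere and Mlxip, each with r = 0.95. For Hnf4g the closest were Apol10b (r = 0.91), Parp11 (r = 0.91) and Knl1 (r = 0.85), lower values than for any other factor.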
